A study of Mus musculus with 96 samples.

Results

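Late-annotated microRNA hairpins were followed across the striatum of mice carrying *Htt* alleles of different CAG repeat length. A hairpin counted as late-annotated when the number in its miRBase accession was 13000 or higher, and it was kept when its estimated count averaged 10 or more over the 96 libraries. The rule found 108 hairpins among 649 late-annotated hairpins and 1187 hairpins in all. Since the hairpins were selected on mean count, their level is a description and was not tested. The tables name hairpins by accession only, and no source used here ties those accessions to microRNA names, so no role, sequence or genome position is given for any hairpin, and no marker of striatal cells could be checked.

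Each library came from the striatum of 1 mouse on a C57BL/6 background. There were 6 genotypes, sampled at 10 and at 6 months with 4 females and 4 males each: wild-type littermates of the Q20 line (WT-Q20), wild-type littermates of the Q50 line (WT-Q50), and mice heterozygous for a Q20, a Q50, a Q92 or a Q140 knock-in allele. In each knock-in line, 1 *Htt* allele holds human *HTT* exon 1 with the engineered repeat and the other is wild type. WT-Q20, WT-Q50 and Q20 together formed the 24 controls of each age. No wild-type littermates of the Q92 and Q140 lines were analysed here, so CAG length and line cannot be told apart for them. The labels place Q92 and Q140 mice in cages of their own genotype, whereas the study's methods describe cages shared with wild-type mice, and which applied was not settled. Total counts ranged from 3948560 to 12530911 per library (median 6638753).

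A microRNA is a short RNA cut from the stem of a hairpin precursor by Drosha and Dicer, and it guides Argonaute proteins to messenger RNAs, which are then translated less or decay sooner. miRBase numbers its entries in the order in which they are added. Early entries hold most of the abundant, conserved microRNAs of the brain, and late entries came largely from deep sequencing and include hairpins of short introns and of other RNA classes, some of which are of uncertain standing. In bulk striatum a lower level can mean fewer cells of a type or less RNA per cell, and these cannot be told apart here.

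The late-annotated hairpins took a small share of each library. Together they held 1.47% to 2.51% of the counts of a library (median 1.8%). At 10 months their share was 1.56% to 1.92% in the 8 Q140 libraries (median 1.82%), against 1.59% to 2.51% in the 24 controls (median 1.86%). At 6 months it was 1.47% to 1.91% in Q140 (median 1.78%), against 1.59% to 1.91% in controls (median 1.71%). The groups overlapped almost fully at both ages. The median hairpin had a mean count of 50, against 1397 for the 321 earlier hairpins that passed the same count minimum, and 40 of the 108 averaged over 100 counts.

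A few hairpins carried most of that share. MI0021961 averaged 34668 counts, MI0014027 34094 and MI0014103 21207, and these 3 made up 65.5% to 81.3% of the late-annotated counts of a library (median 75.4%). Per hairpin length, MI0014027 averaged 58184 FPKM, MI0021961 56552 and MI0014103 35987, which placed them 40th, 41st and 53rd of the 1187 hairpins. Nearest to the count minimum were MI0014091 with a mean of 10.4 counts and MI0022753 with 10.6 inside it, and MI0018031 with 9.99 and MI0014028 with 9.61 outside it. The late-annotated precursors were also short. The length that the counts and FPKM values imply had a median of 72 bases, against 84 for the 321 earlier hairpins, and 53 of 108 (49.1%) were under 70 bases, against 50 of 321 (15.6%).

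**Figure D1:**
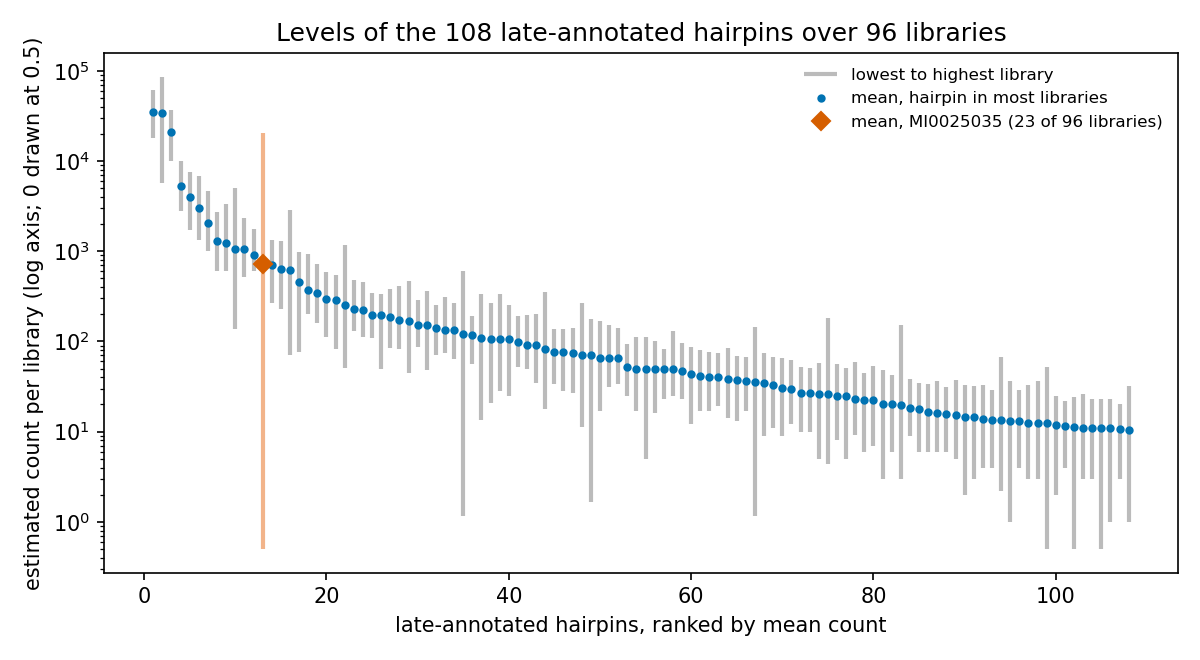
Estimated count per library of the 108 late-annotated hairpins, ranked by mean count (horizontal axis) on a log axis. Points are means over 96 libraries and lines run from the lowest to the highest library. The 3 hairpins at the left average 34668, 34094 and 21207 counts, and the orange diamond is MI0025035, which was found in 23 of 96 libraries.

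Presence set 1 hairpin apart from the rest. Of the 108, 107 had a count of 1 or more in at least 94 of the 96 libraries, and 1, MI0025035, had one in 23. A mean count of at least 10 was required, so presence in nearly all libraries follows largely from the selection and is a description. MI0025035, with a mean of 716 counts and a median of 0.0013, met the minimum through the libraries where it was high. Among the 107, MI0022857 was present in 94 libraries, MI0022354 and MI0022825 in 95 each, and the others in all 96. The spread over libraries, as the coefficient of variation of CPM (the count scaled to a common library size by the TMM method), had a median of 26.7% over the 108. It was lowest for MI0014030, at 8.33%, and highest among the widespread hairpins for MI0016973, at 94.4%. Of the abundant 3, MI0021961 was steady at 10.8% and MI0014103 varied by 27.1%. MI0014027 varied by 24.8%, with 1253 to 9640 CPM.

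Each library description ends in an L number (3 to 6) and an LB number (1 to 36), whose meaning the labels do not give. Of the 10-month libraries, 9 carried L3, 27 carried L4 and 12 carried L5. Of the 6-month libraries, 2 carried L3, 10 carried L4, 27 carried L5 and 9 carried L6. The L numbers were unevenly spread over genotypes: at 10 months 7 of 8 Q140 libraries carried L4 and none carried L3. At 6 months 3 libraries stood apart from the rest, all from males and all with L5: Q140 male 1, WT-Q50 male 3 and WT-Q20 male 4. Over 429 hairpins their median absolute deviation from the all-library medians was 0.51 to 0.63 on the log2 scale, against 0.17 for the median library. Of the 108 late-annotated hairpins, 12 had their highest level of all 96 libraries in Q140 male 1, 11 in WT-Q50 male 3 and 4 in WT-Q20 male 4.

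MI0025035 was the hairpin found in few libraries, and its libraries followed the L and LB numbers. Of all its counts, 81.6% lay in the 6 libraries with LB number 15 or 26. At 10 months it had 6873 counts in Q92 male 4 (LB26), 5710 in WT-Q20 female 1 (LB15) and 3882 in Q50 male 2 (LB26). At 6 months it had 20594 counts in Q50 male 2 (LB26), 11353 in WT-Q50 female 1 (LB26) and 7716 in WT-Q50 male 1 (LB15). Every library with LB15 or LB26 was thus high, at both ages and under L3, L4, L5 and L6, in wild-type and knock-in mice alike. This grouping by LB15 and LB26 was seen in the values and was not tested. In the fit of all LB numbers over the 96 libraries MI0025035 was not called (edgeR, adjusted p = 0.291). That count model is poorly suited to a hairpin absent from most libraries, so no conclusion on the grouping was drawn from it.

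The second set of libraries with MI0025035 carried L6, which occurred at 6 months only. All 9 L6 libraries had it, 8 of them with an LB number other than 15 and 26 and with 18 to 4774 counts. These 8 included 3 Q140 mice with 97, 321 and 4774 counts and 2 WT-Q20 mice with 18 and 55 counts. The remaining 82 libraries had at most 2288 counts (Q20 male 2 at 6 months), and 73 of them rounded to 0. A count of 0 allows up to 0.239 to 0.760 ppm of the library total, depending on the library. Many of these zeros were not exact: 62 libraries had an estimated count above 0 that rounded to 0.

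MI0025035 was present in 4 of 48 libraries at 10 months and in 19 of 48 at 6 months, and its presence differed with L number (permutation test of a chi-square statistic within age, 100000 permutations, any direction, p = 3e-05, adjusted p = 0.0118). It was the only one of the 108 that entered this test, since the others were present in nearly all libraries. Of the 393 hairpins tested, 0.509% were called. Its presence did not differ detectably with age (adjusted p = 0.141, with 0% of 393 hairpins called) or with genotype (adjusted p = 1). At 10 months the WT-Q20, Q20, Q50 and Q92 groups had 1 such library of 8 each, and WT-Q50 and Q140 had 0. At 6 months WT-Q20 had 2 of 8, WT-Q50 5, Q20 4, Q50 3, Q92 1 and Q140 4. With 10 counts in place of 1 as the minimum, 17 libraries had it (3 at 10 months and 14 at 6 months), and L number again separated them (p = 1e-05, the smallest these permutations can give, adjusted p = 0.000407). At that minimum 8 of 122 hairpins (6.56%) were called over L number and 13 (10.7%) over age. Of the 8 called over L number, 4 were late-annotated (MI0025035, MI0016973, MI0021923 and MI0014098). Of the 13 called over age, 5 were late-annotated (MI0022354, MI0021923, MI0018008, MI0018032 and MI0014040). Only some of the 108 were among the 122, since the others had 10 counts in nearly all libraries. The 4 and the 5 are therefore not to be read as shares of 108.

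The same 6 libraries with LB15 or LB26 differed from the rest in 2 earlier hairpins, which were chosen here after their values were seen. MI0000562 had 34.6 to 58.6 CPM in them, against 58.7 to 2312 CPM (median 927) in the other 90 libraries. MI0001163 had 2659 to 6265 CPM in them, against 4791 to 14427 CPM (median 11350). Both were thus low in these 6 libraries, where MI0025035 was high, though the ranges of MI0001163 overlapped. Their levels in the other libraries with MI0025035 were not compared. Both were called over LB number (edgeR, adjusted p = 7.1e-23 and 3.42e-10). The part of the LB and L numbers in the level of MI0025035 was not separated from the mice, since each library has 1 of each.

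**Figure D2:**
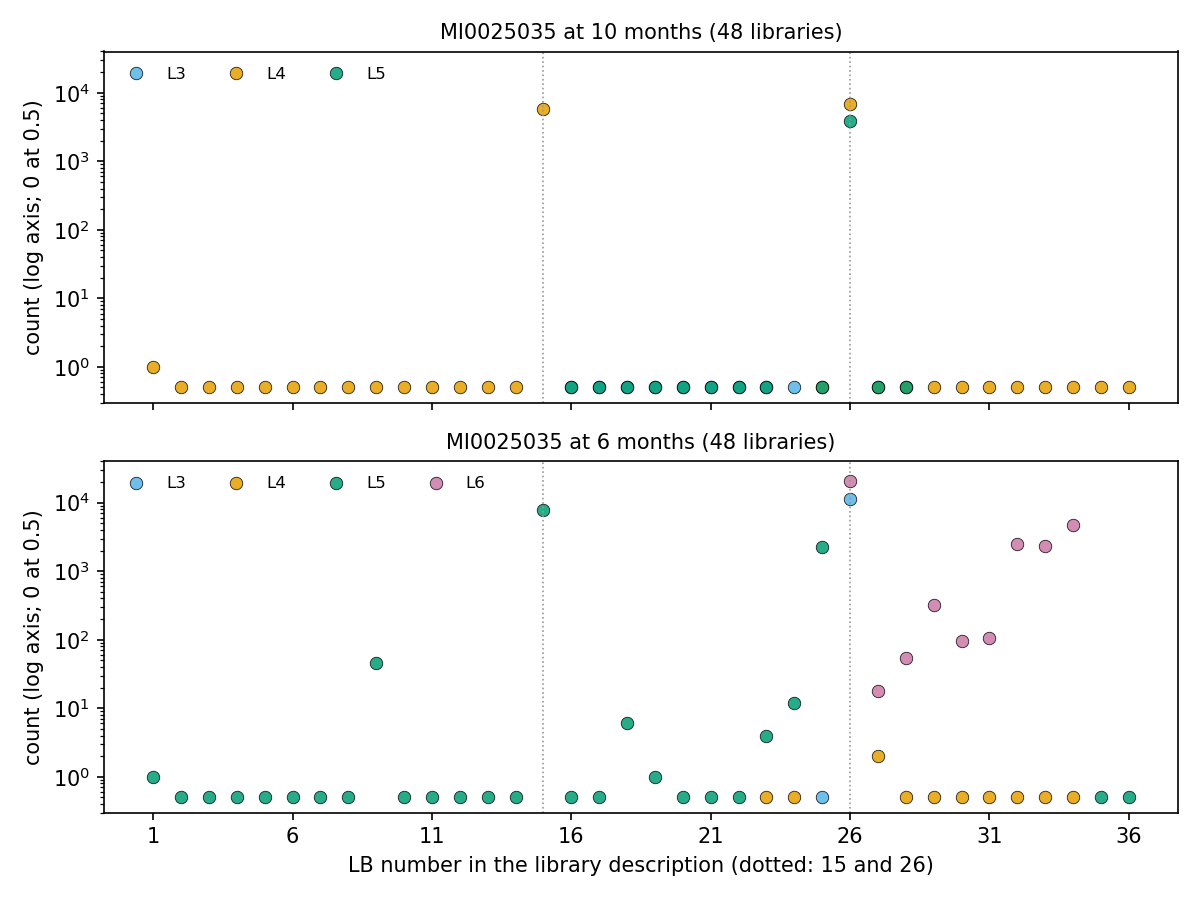
Count of MI0025035 in each library (log axis, 0 drawn at 0.5) against the LB number of the library, at 10 months (top) and 6 months (bottom), coloured by L number. The 6 libraries at LB15 and LB26 have 3882 to 20594 counts, and the 9 L6 libraries all lie at 18 or above.

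The main comparison asked which hairpins change with *Htt* CAG length. MI0014095 fell most clearly, and of the 16 hairpins called over both ages 14 fell and 2 rose with repeat length. At 10 months MI0014095 had medians of 339 CPM in WT-Q20, 332 in WT-Q50, 323 in Q20, 304 in Q50, 255 in Q92 and 195 in Q140 mice. At 6 months the medians were 354 CPM in WT-Q20, 383 in WT-Q50, 339 in Q20, 322 in Q50, 335 in Q92 and 226 in Q140. The order of genotypes thus followed repeat length at 10 months from Q20 to Q140, and at 6 months only Q140 lay apart. Its slope was -0.54 ± 0.07 at 10 months and -0.41 ± 0.09 at 6 months (log2 per 100 repeats ± SE), with adjusted p = 3.41e-08 and 0.00456, and -0.47 ± 0.06 over both ages (adjusted p = 5.86e-11).

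Against controls, the 8 Q140 mice had 163, 195 and 226 CPM of MI0014095 at 10 months (lowest, median, highest), against 165, 334 and 410 in the 24 controls. All 8 were below the control median, and 22 of 24 controls were above the highest Q140 mouse. At 6 months Q140 had 190, 226 and 449 CPM, against 254, 357 and 667 in controls. The 449 belonged to Q140 male 1, 1 of the 3 libraries that stand apart, and 6 of the other 7 lay below the lowest control. The Q140 difference was -0.73 ± 0.09 at 10 months and -0.61 ± 0.13 at 6 months (log2, adjusted p = 1.56e-08 and 0.00122), and -0.67 ± 0.08 over both ages. Without the 3 libraries it was -0.72 ± 0.07 over both ages, and without the L6 libraries -0.61 ± 0.09. MI0014095 was also called over L number at 6 months (adjusted p = 0.0205).

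Counts of calls were read against all hairpins. By CAG length 9 of 108 late-annotated hairpins were called at 10 months, 3 at 6 months and 16 over both ages, and the shares of all 497 hairpins tested were 16.1%, 6.44% and 21.1%. Of these 16, 14 (13% of 108) were lower with longer repeats, near the 10.9% of all hairpins, and 2 (1.85%) were higher, against 10.3% of all. The median slope was -0.02 over the 108 and 0.00 over all 497. By level, 9 of the 59 hairpins under 10 CPM were called, 5 of the 35 from 10 to 100 CPM and 2 of the 14 above, with a median SE of the slope of 0.08, 0.07 and 0.04. Each of the 16 had a slope of the same sign at 10 and at 6 months. Being called on both ages combined favours such agreement, so it is a description only.

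Comparing Q140 with controls gave the same 16 and 3 more. At 10 months 11 of the 108 were called, at 6 months 3 and over both ages 19, with 16.9%, 7.44% and 23.7% of all hairpins called. Over both ages 16 (14.8%) fell and 3 (2.78%) rose, against 12.7% and 11.1% of all hairpins. Scaled to total counts alone, 20 fell and 1 rose. Without the 3 libraries that stand apart 9 late-annotated hairpins were called at 6 months, of 68 in all.

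In the Q140 comparison, the smallest adjusted p after that of MI0014095 were those of MI0026046, MI0014096, MI0026036 and MI0021908. MI0026046 had 12.6, 14.3 and 17.9 CPM in Q140 mice at 10 months (lowest, median, highest), against 13.1, 21.4 and 34.7 in controls. At 6 months it had 13.6, 16.7 and 34.4 CPM in Q140, against 14.7, 21.9 and 37.3 in controls. The difference was -0.46 ± 0.09 over both ages (adjusted p = 7.46e-06), and the groups overlapped at both ages. MI0026046 was also called over L number at 6 months (adjusted p = 0.0492).

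MI0014096, whose accession follows that of MI0014095, had 15.2, 17.2 and 20.5 CPM in Q140 mice at 10 months, against 11.5, 25.7 and 32 in controls, and 20 of 24 controls were above the highest Q140 mouse. At 6 months it had 11.2, 17.1 and 23.1 CPM in Q140, against 11.9, 19.8 and 29 in controls. Its difference was -0.54 ± 0.11 at 10 months (adjusted p = 0.000381), -0.25 ± 0.12 at 6 months (adjusted p = 0.225) and -0.39 ± 0.08 over both ages (adjusted p = 0.000126). The change of its slope with age was not called. Despite the neighbouring accessions, MI0014095 and MI0014096 varied nearly independently over the 96 libraries (Pearson's r = 0.173, Spearman's rho = 0.184), which share library depth and normalisation.

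MI0026036 and MI0021908 overlapped more. MI0026036 had 42.0, 49.0 and 55.1 CPM in Q140 at 10 months, against 36.8, 62.9 and 103 in controls, and MI0021908 had 70.4, 73.9 and 85.3 CPM, against 54.6, 91 and 135. All 8 Q140 mice were below the control median for both hairpins. Over both ages MI0026036 differed by -0.44 ± 0.10 and MI0021908 by -0.34 ± 0.09 (adjusted p = 0.000336 and 0.00104). MI0026036 was also called over L number at both ages. MI0030346 fell by a smaller amount but evenly, with a slope of -0.16 ± 0.04 (adjusted p = 0.000515): at 6 months Q140 had 27.8, 30.2 and 35.6 CPM, against 29.2, 35.8 and 49.8 in controls, and all 8 were below the control median.

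The remaining falls were small or in low hairpins. They were called by CAG length in MI0023731, MI0022893, MI0022791, MI0022905, MI0021951, MI0018032, MI0022753 and MI0023721, with slopes from -0.37 (MI0022905) to -0.14 (MI0022791). MI0022791, the most abundant of them, had 147, 155 and 186 CPM in Q140 mice at 10 months, against 130, 187 and 238 in controls. MI0022930 and MI0022266 were called against Q140 only, with differences of -0.33 ± 0.12 and -0.16 ± 0.06 (adjusted p = 0.0318 and 0.0354).

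The rises were fewer and weaker. MI0025041 had 2.40, 3.87 and 4.95 CPM in Q140 mice at 10 months, against 1.14, 2.77 and 3.73 in controls, and 5 of 8 Q140 mice were above every control. At 6 months it had 2.81, 3.92 and 10.5 CPM in Q140, against 1.67, 3.44 and 7.05 in controls. Its slope was 0.28 ± 0.08 and its Q140 difference 0.41 ± 0.11 over both ages (adjusted p = 0.00293 and 0.00148). MI0026043 had 6.31, 7.85 and 8.98 CPM in Q140 at 10 months, against 5.09, 6.12 and 7.91 in controls. Its slope of 0.16 ± 0.06 (adjusted p = 0.0209) became 0.10 without Q140 male 1 at 6 months (adjusted p = 0.108). Without all 3 libraries that stand apart the slope was 0.15 ± 0.05 (adjusted p = 0.0212). The Q140 difference was then 0.14 ± 0.07 (adjusted p = 0.0884). MI0020958 differed by 0.32 ± 0.12 in Q140 (adjusted p = 0.0467), lost the call in 35 of 106 alternatives (adjusted p = 0.0124 to 0.258), and shared its exact value with MI0014047 in 71 of 96 libraries.

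**Figure D3:**
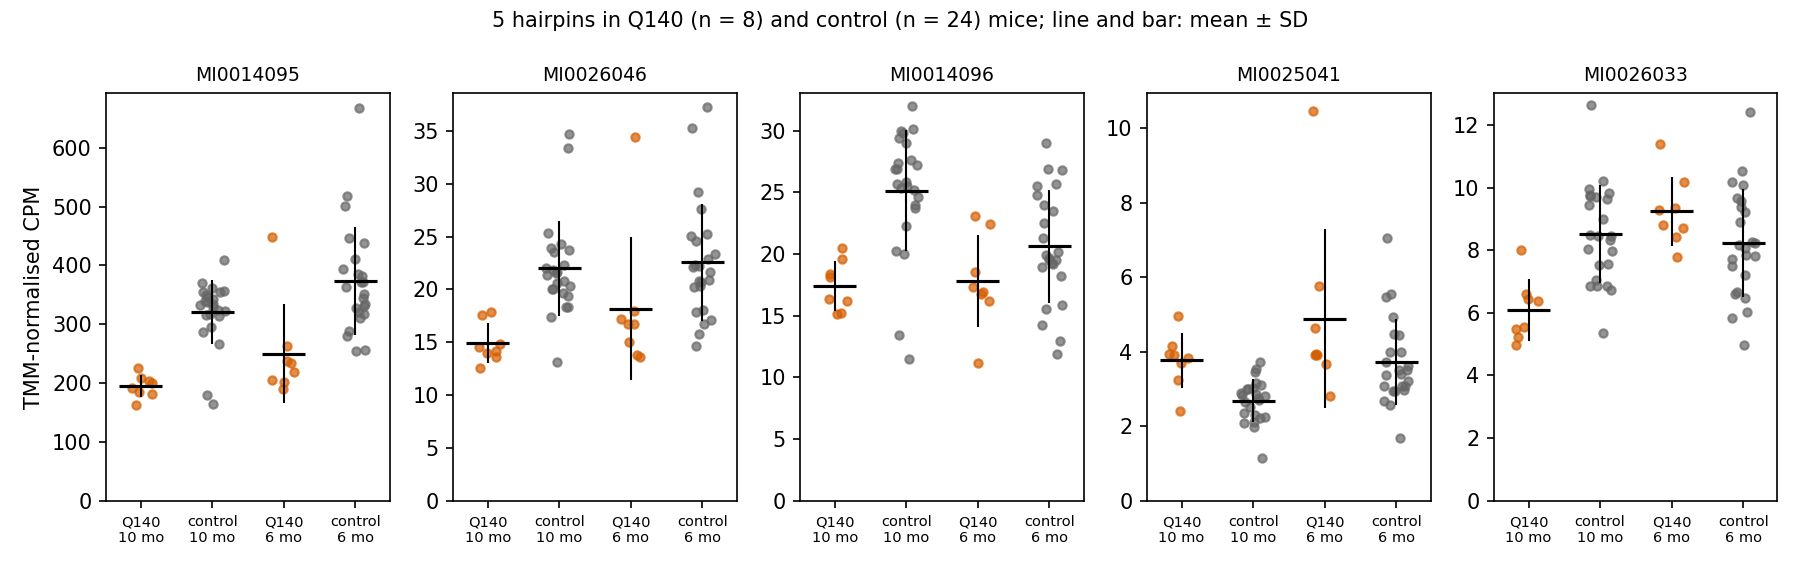
CPM of 5 hairpins in Q140 mice (orange, n = 8) and controls (grey, n = 24) at 10 and at 6 months. Lines and bars are mean ± SD and each point is 1 mouse. For MI0014095 at 10 months the Q140 mice lie at 163 to 226 CPM and 22 of 24 controls lie above them, and the Q140 mouse at 449 CPM at 6 months is the one at 34.4 CPM for MI0026046 and at 10.5 CPM for MI0025041.

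Shorter repeats gave no call. Over both ages 0 of the 108 were called in Q92 and 0 in Q50 against controls by edgeR, where 0% of 497 hairpins were called in either comparison. At an unadjusted p under 0.05 there were 6 in Q92 (5.56%, against 8.45% of all hairpins) and 16 in Q50 (14.8%, against 9.26% of all hairpins). MI0014095 differed by -0.23 ± 0.08 in Q92 and -0.11 ± 0.08 in Q50 (adjusted p = 0.221 and 0.768). A miss of the threshold does not show that these mice were like controls.

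The slope changed with age in 1 late-annotated hairpin, MI0026033. It had 4.97, 5.96 and 8.01 CPM in Q140 at 10 months, against 5.36, 8.47 and 12.6 in controls, and 7.80, 9.04 and 11.4 CPM in Q140 at 6 months, against 4.98, 8.13 and 12.4 in controls. Q140 mice were all below the control median at 10 months, and 7 of 8 were above it at 6 months. Its slope was -0.34 ± 0.09 at 10 months and 0.07 ± 0.09 at 6 months, and the interaction of CAG length and age was -0.43 ± 0.12 (adjusted p = 0.0296). The interaction was called in 2.01% of the 497 hairpins.

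Age was compared in the 48 controls and, in other mice, in the 48 Q50, Q92 and Q140 libraries. In controls 42 of the 108 were called, 24 higher and 18 lower at 10 months, and in the knock-in mice 41, 20 higher and 21 lower. Of all 497 hairpins 40.8% were called in controls (20.9% higher, 19.9% lower) and 37.4% in Q50, Q92 and Q140 (19.9% higher, 17.5% lower). Scaled to total counts alone, 31 were higher and 14 lower in controls. Called in both classes of mice with the same direction were 32 late-annotated hairpins, 18 higher and 14 lower at 10 months, and 29% of all hairpins. The L numbers of both ages were unequal, and 15 of these 32 (46.9%) were also called over L number at 1 age or both, as were 72 of the 144 hairpins in all (50%).

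MI0021583 and MI0021587 were much higher in the 10-month libraries. MI0021583 had 87.4, 219 and 609 CPM in controls at 10 months, against 20.2, 68.2 and 121 at 6 months, and 85, 203 and 641 CPM in Q50, Q92 and Q140 mice at 10 months, against 21.3, 66.7 and 192 at 6 months. MI0021587 had 50.4, 141 and 290 CPM in controls at 10 months, against 10.4, 40.5 and 71.2 at 6 months. The log2 differences in controls were 1.91 ± 0.21 and 1.8 ± 0.20 (adjusted p = 4.15e-10 and 5.96e-10). Both hairpins moved together over the 96 libraries (Pearson's r = 0.959, Spearman's rho = 0.970), which share age and L number as well as depth. Their level also varied among 10-month libraries: MI0021583 had medians of 384 CPM in L3, 159 in L4 and 259 in L5.

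Within 1 L number the difference was of another size. Among L4 controls (13 at 10 months and 4 at 6 months) MI0021583 was higher at 10 months by 0.86 ± 0.26 (log2, adjusted p = 0.0691) and MI0021587 by 0.82 ± 0.33 (adjusted p = 0.21). Among L5 controls (5 at 10 months and 16 at 6 months) the differences were 2.47 ± 0.34 and 2.36 ± 0.31 (adjusted p = 4.17e-05 and 4.09e-05). MI0022354, a low hairpin, followed them: it had 0.96, 2.27 and 6.33 CPM in controls at 10 months, against 0.00, 0.78 and 2.58 at 6 months, and correlated with MI0021587 over the 96 libraries (Pearson's r = 0.829, Spearman's rho = 0.844). Whether an L number means the same at both ages is not stated.

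**Figure D4:**
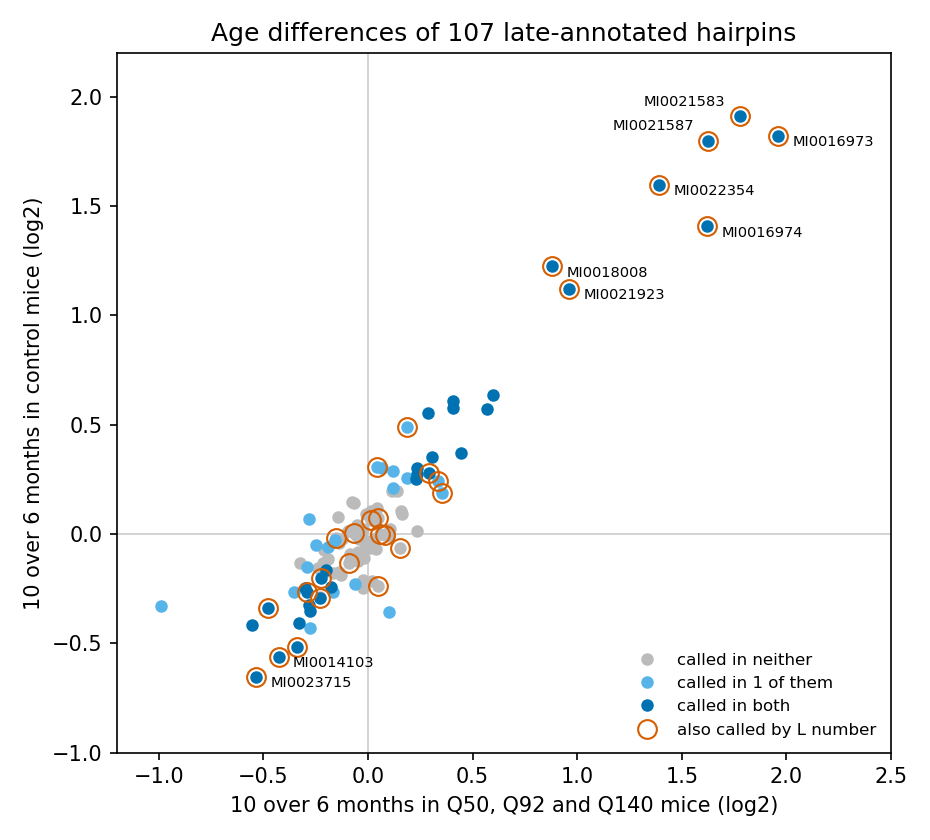
Log2 difference between 10 and 6 months of the 107 widespread late-annotated hairpins in Q50, Q92 and Q140 mice (horizontal) and in controls (vertical). Colour gives how many of these comparisons called the hairpin, and orange rings mark hairpins also called over L number. The hairpins furthest to the upper right, from MI0021583 (1.91 in controls) to MI0021923 (1.12), all carry a ring.

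MI0016973 and MI0016974, neighbours by accession, had age differences that were not the same under each L number. In the pooled controls both were higher at 10 months, MI0016973 by 1.82 ± 0.43 and MI0016974 by 1.41 ± 0.23 (adjusted p = 0.000664 and 3.47e-06). At 10 months MI0016973 had medians of 28.3 CPM in L3, 39.3 in L4 and 0.84 in L5. At 6 months it had medians of 1.27 CPM in L3, 0.78 in L4, 12.6 in L5 and 0.77 in L6. The L4 libraries were thus high at 10 months and low at 6 months, and the L5 libraries the reverse, with no overlap: 0.22 to 1.83 CPM in L5 at 10 months, against 8.68 to 17.8 CPM in L5 at 6 months.

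MI0016974 ran parallel (Pearson's r = 0.919, Spearman's rho = 0.915 over 96 libraries). Among L4 controls it had 17.4 to 26.2 CPM at 10 months, against 2.34 to 5.04 CPM at 6 months, and the difference was 2.5 ± 0.20 (adjusted p = 4.45e-08). Among L5 controls it had 2.33 to 3.51 CPM at 10 months, against 4.25 to 10.8 CPM at 6 months, and the difference turned to -1.23 ± 0.22 (adjusted p = 0.00054). With L number in the model the age difference was 0.68 ± 0.39 (adjusted p = 0.199). The same levels held in control and knock-in libraries of an L number: at 10 months L4 gave 14.7 to 26.7 CPM in Q50, Q92 and Q140 mice, against 17.4 to 26.2 in controls.

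Other hairpins followed single L numbers. MI0018008 had a median of 9.24 CPM in the 9 L3 libraries at 10 months (3.17 to 18.1), with medians of 2.29 in L4 and 2.85 in L5. MI0021923 had a median of 3.63 CPM in the 27 L4 libraries at 10 months (2.01 to 5.94), with medians of 1.24 in L3 and 1.61 in L5. Both were called higher at 10 months in controls, by 1.23 ± 0.27 and 1.12 ± 0.22, and at 6 months their medians lay between 1.03 and 2 CPM under every L number. MI0014697 reached 25.6 CPM in 1 library, Q140 male 1 at 10 months (L5), against a median of 3.75 for L5 at that age.

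**Figure D5:**
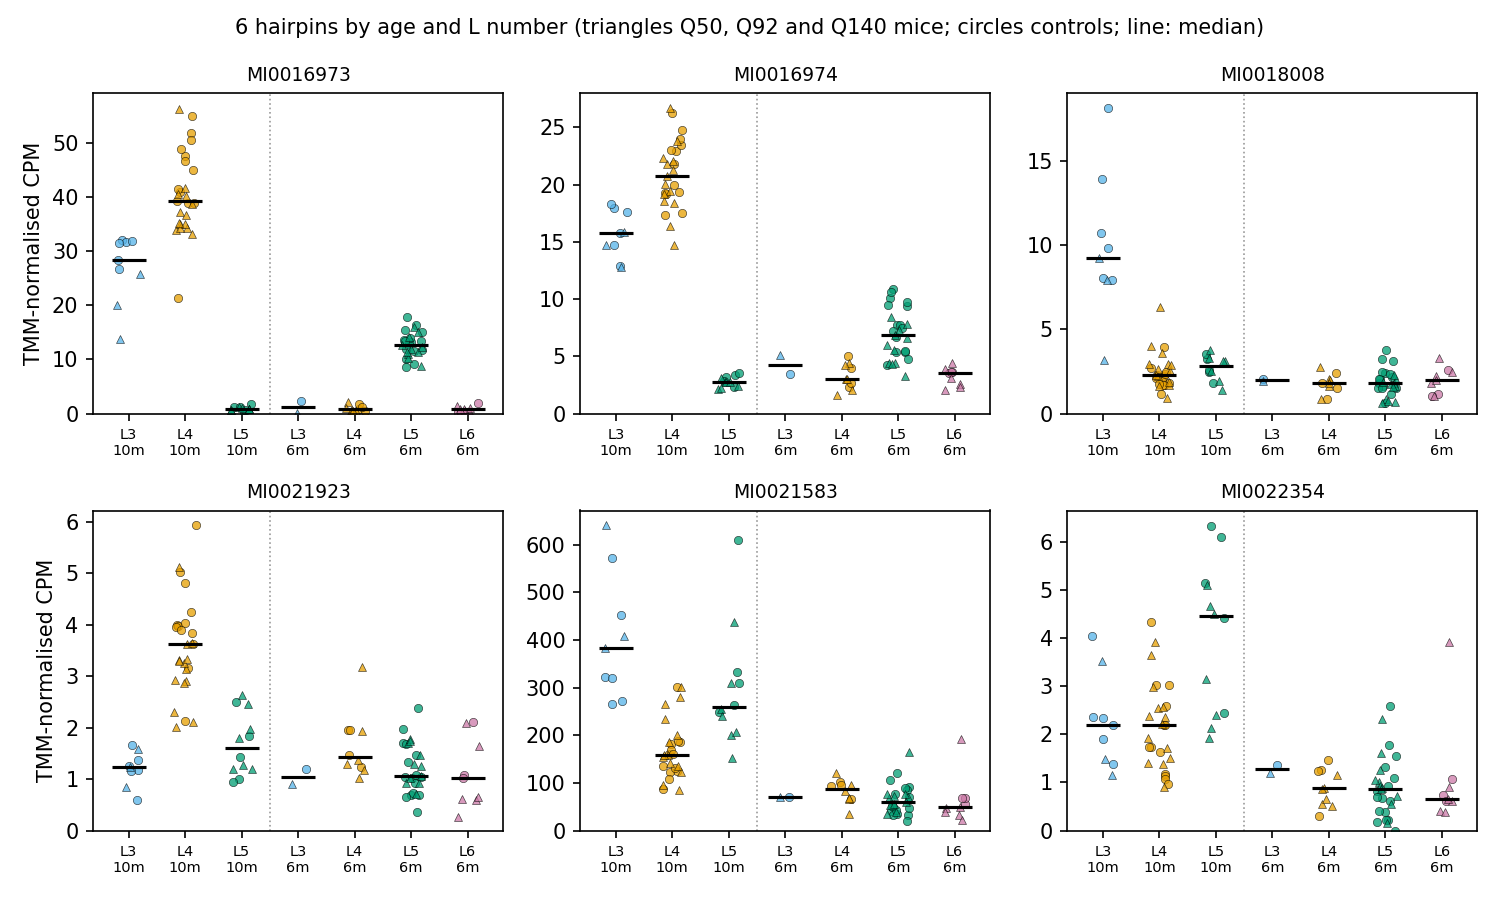
CPM of 6 late-annotated hairpins by age and L number. Circles are control libraries, triangles are Q50, Q92 and Q140 libraries, and lines are medians. MI0016973 is high in L3 and L4 at 10 months (medians 28.3 and 39.3 CPM) and in L5 at 6 months (12.6 CPM), and near 1 CPM elsewhere.

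Over L number 16 of the 108 were called at 10 months and 17 at 6 months, where 23.1% and 18.9% of all 497 hairpins were called. Called at both ages were 4: MI0016973, MI0016974, MI0022918 and MI0026036. Of the 19 hairpins called by CAG length or in Q140, 3 (MI0014095, MI0026036 and MI0026046) were also called over L number. Of all 108, 29 were called over L number at 1 age or both. The same overlap was not counted over all hairpins. Over LB number 1 of the 108 was called, MI0021960 (adjusted p = 2.1e-05), where 1.21% of all were called. MI0021960 had medians of 19.2 CPM in LB35, 24.7 in LB34, 36.1 in LB27, 37.3 in LB12 and 39.3 in LB32, and of 42.6 to 91.8 CPM under every other LB number. These medians rest on few libraries each, and the ranges overlapped. LB27 (n = 4) had 21.8 to 95.1 CPM, and LB4 (n = 2), with a median of 61.5, had 32.6 to 90.4 CPM.

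Hairpins lower at 10 months differed by less than the higher hairpins above. MI0014103, of the abundant 3, had 2280, 2701 and 3186 CPM in controls at 10 months, against 3078, 3912 and 7245 at 6 months, and 2377, 2607 and 3114 CPM in Q50, Q92 and Q140 mice at 10 months, against 2606, 3538 and 6466 at 6 months. It differed by -0.56 ± 0.07 in controls (adjusted p = 4.39e-09), and by -0.48 ± 0.05 without the 3 libraries that stand apart, which had 6466 to 7245 CPM. MI0016971 had 634, 724 and 906 CPM in controls at 10 months, against 708, 864 and 1086 at 6 months (-0.25 ± 0.04, adjusted p = 2.69e-07). MI0014049, MI0022918 and MI0023715 differed by -0.35 ± 0.05, -0.34 ± 0.06 and -0.65 ± 0.12. All 5 kept the call with L number in the model and among L5 controls, and none of them was called among the 17 L4 controls, where 4 of the 108 were. MI0016971 was about as large in L4 (-0.25) as in L5 (-0.28). The other 4 were smaller in L4 than in L5, with -0.33 against -0.61 for MI0014103, -0.24 against -0.49 for MI0014049, -0.47 against -0.95 for MI0023715 and -0.13 against -0.53 for MI0022918.

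MI0014031 was higher at 10 months by a smaller amount. It had 6.32, 9.03 and 13.6 CPM in controls at 10 months, against 3.55, 5.94 and 8.88 at 6 months. The difference was 0.58 ± 0.09 (log2, edgeR, adjusted p = 6.44e-07). MI0014027, the hairpin with the highest level per length, had 3656, 5565 and 9640 CPM in controls at 10 months, against 1253, 4186 and 6377 at 6 months (0.49 ± 0.11, adjusted p = 0.000247). The lowest of these controls, at 1253 CPM, is 1 of the 3 libraries that stand apart, and without them the difference was 0.40 ± 0.09 (adjusted p = 0.000191). MI0014027 was also called over L number at 6 months (adjusted p = 0.0403), and its age difference was 0.24 ± 0.17 among L4 controls (adjusted p = 0.569) and 0.83 ± 0.20 among L5 controls (adjusted p = 0.00655). In Q50, Q92 and Q140 mice its difference was 0.19 (adjusted p = 0.099), and the difference between these classes was not tested. MI0021961 was not called by age in either class. MI0014108 was called in Q50, Q92 and Q140 mice only, at -0.99 ± 0.33 (adjusted p = 0.0141), and its highest level, 18.6 CPM, was in Q92 male 1 at 6 months, an L6 library.

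Several rows of the table repeat others. MI0021961 had the same value as MI0000259 in all 96 libraries, MI0021960 the same as MI0001730 and MI0021959 the same as MI0005550, so each pair gave 1 measurement and not 2, and which precursor the reads came from cannot be told apart. This covers the most abundant late-annotated hairpin and the only one called over LB number. In 24 of the 108 some values were not whole numbers, as also in 123 of the 321 earlier hairpins. Of the 5778 pairs of late-annotated hairpins, 14 correlated at r = 0.7 or above over the 96 libraries, and of the 30 pairs with consecutive accessions 1 did (MI0016973 and MI0016974). The median r was 0.01 over all pairs and 0.05 over the consecutive ones. No call in any of the comparisons of CAG length, Q140, their change with age, age, L number and LB number was made for 39 of the 108 (36.1%) and for 134 of all 497 hairpins (27%).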

How the data were processed

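The authors sequenced small RNA strand-specifically on an Illumina HiSeq instrument (the submitters' notes name CASAVA 1.8.2), aligned clipped reads with STAR to the mouse genome, counted with HTSeq and deposited a table of estimated counts per miRBase hairpin and a table of FPKM that the authors made from those counts. Of the estimated count values above 0, 20.0% were not whole at a tolerance of 0.001, although HTSeq gives whole counts, and how these arose is not given in the sources used here. Counts were rounded. The tables held 96 library columns, each matched to its sample by its description.

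filterByExpr (minimum count of 10 over 24 groups) kept 497 hairpins with 99.99% of counts, with every late-annotated hairpin described here among them. Quasi-likelihood F tests were run in edgeR 4.0.16 (R 4.3.3) with TMM, robust dispersion and sex as covariate, per age for CAG length (7 repeats for wild type) and for Q50, Q92 and Q140 against controls. Signed Z values of both ages were combined by Stouffer's method, and the log2 value over both ages is their mean. Age models held genotype and sex, L models (1 per age) genotype and sex, and the LB model genotype and L number within age and sex. P-values were adjusted by Benjamini-Hochberg over all hairpins tested, and a call is an adjusted p under 0.05. Replicates are separate mice. The model was tested on simulated data with known changes. The study's own tests, by DESeq2, also had a batch covariate, which the labels do not define and which was not used, and were run after single outlying values had been replaced, which was not done here.

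At 3948560 to 12530911 counts a library, the hairpins with means near 10 counts are the least precise, and the limits given for counts of 0 cover counting error only.

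Hairpins were described if widespread and called by CAG length, in Q140 or in both age comparisons with the same direction (the 5 smallest adjusted p per direction where over 10 were called), if among the 3 most abundant, if found in few libraries, or if nearest to the count minimum. MI0016973, MI0018008, MI0021923, MI0014697, MI0021960, MI0026033, MI0014108 and the remaining names were given after their values were seen. The members, rules and tests were chosen with earlier results of these data known. Alternatives were DESeq2 1.42.0, limma 3.58.1 on log2(FPKM + 1), RLE factors, total counts, other filters, L number, a replicate block, leaving out single libraries and, chosen after seeing the data, leaving out L6 libraries, leaving out the 3 libraries that stand apart, and single L numbers.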

Additional observations from a re-analysis of the deposited data

Results flagged for a closer look

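Dixon's test was run on the 8 mice of a genotype and age in 30 groups of values, and chance flags about 1 in 20. In Q140 mice at 6 months, male 1 lay far above the other 7 in 6 hairpins. It had 449 CPM of MI0014095 (others 190 to 264), 188 of MI0021908 (63.5 to 97.2), 84.4 of MI0026036 (30.1 to 44.2), 34.4 of MI0026046 (13.6 to 17.9), 19.1 of MI0026043 (6.86 to 10.4) and 10.5 of MI0025041 (2.81 to 5.75). It is 1 of the 3 libraries that stand apart. At 10 months, Q140 male 4 was high in MI0021908 (85.3 CPM, others 70.4 to 76.9) and Q140 female 4 was low in MI0030346 (23.4 CPM, others 30.8 to 34.2).

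MI0025035 set 1 library apart in 9 groups. In 5 of them every other library was at 0 and in the others several were, so a library with counts is set apart by construction, and the values are given as a description. At 10 months these were Q20 male 1 (0.189 CPM, a rounded count of 1), Q50 male 2 (532 CPM), Q92 male 4 (1080 CPM) and WT-Q20 female 1 (852 CPM), with all others of the group at 0. At 6 months they were WT-Q20 female 2 (8.07 CPM, others at most 2.72), Q20 male 2 (335 CPM, others at most 14.3), Q50 male 2 (3380 CPM, others at most 324), Q92 male 1 (329 CPM, others at 0) and Q140 male 3 (668 CPM, others at most 48.1).

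The slope of MI0026033 on CAG length differed between ages, with an interaction of -0.428 (log2 per 100 repeats).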

How the results depend on the processing

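The number of late-annotated hairpins called was 16 by CAG length, 19 in Q140 and 42 by age in controls. With L number in the model 28 were called by age, 15 higher and 13 lower at 10 months, and 138 of all 497 hairpins. The numbers stayed within 1.5 times of these with DESeq2, RLE factors, total counts, no filter on low counts, limma on FPKM, L number in the model, and without the L6 or the 3 outlying libraries. With a filter at a mean of 10 CPM, which kept 49 of the 108, 7 were called by CAG length and 9 in Q140. Of all 314 hairpins that this filter kept, 81 and 96 were called. By age, 4 were called among L4 controls (26 of all 497) and 21 among L5 controls (96 of all 497), with fewer libraries. At 6 months CAG length called 3 hairpins (32 of all 497), and 5 with total counts (31 of 497). It called 1 without the low-count filter (17 of 1005) and 6 without the 3 outlying libraries (54 of 497). Without those 3 libraries 9 in place of 3 were called in Q140 against controls (68 of 497). L number at 6 months called 17 (94 of 497), and 8 without the filter (46 of 1005). The cause of these changes was not tested. Leaving out single libraries gave 14 to 19 by CAG length, 16 to 22 in Q140 and 40 to 44 by age. The FPKM values moved the median age difference of all 497 hairpins to 0.11 (log2), and then 32 were called higher and 16 lower at 10 months.

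The replicate block gave 16, 18 and 43 calls, of 105, 113 and 202 over all 497 hairpins. Numbers did not pair libraries: residuals of same-numbered libraries had mean r = -0.01 at 10 and -0.04 at 6 months, and 16 of 96 libraries correlated best with their own number. Of 2173 values of 25 named results, 2114 kept direction and call and 58 lost the call. Most of these values left out 1 library only, in 96 refits per CAG or Q140 result and 48 per age result. Such refits change the data little. Among L4 controls, MI0016974 was the only named age result that kept its call. MI0016974 by age turned to -1.23 among L5 controls. Requiring a mean of 10 CPM leaves 49 hairpins in place of 108. With 10 counts as presence, 2 hairpins in place of 1 were in few libraries. Low counts limit the precision of the 59 hairpins under 10 CPM.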
